A study of Mus musculus with 6 samples.

Results

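Amino acid transporter genes of 6 solute carrier families were followed in fully grown mouse oocytes that lack both RING1 and RNF2, the ubiquitin ligases of Polycomb repressive complex 1 (PRC1). The genes were taken by symbol, as every member of the SLC1, SLC6, SLC7, SLC36, SLC38 and SLC43 families in the deposited table whose symbol ends in a number. The imprinted gene Slc38a4 was left out, and the symbol pattern also leaves out Slc6a20a and Slc6a20b, which are given with the other carriers. This gave 56 of 24028 genes: 7 of SLC1, 17 of SLC6, 15 of SLC7, 4 of SLC36, 10 of SLC38 and 3 of SLC43. Not all of them carry amino acids, since SLC6 also holds the carriers of noradrenaline, dopamine, serotonin and creatine, and Slc43a3 encodes a nucleobase carrier.

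RNA was measured in 6 libraries, each from 15 germinal vesicle oocytes of 1 female of about 3 months on a mixed FVB, 129/Sv and C57BL/6J background. All 6 females were Ring1 -/-; Rnf2 f/f. The 3 females of the dKO group also carried Zp3-cre, a recombinase transgene driven by a promoter active in growing oocytes, and the 3 control females did not. No library with intact Ring1 was measured, and the transgene and Rnf2 loss cannot be told apart. Values are FPKM, fragment counts scaled by transcript length and library size, so levels of different genes can be compared per length.

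The sums of FPKM were 318273 to 327480 in controls and 278701 to 309549 in dKO libraries. Only a relative depth can be read from the steps between low FPKM: with control replicate 1 set to 1, controls ran from 0.908 to 1.02 and dKO libraries from 0.664 in replicate 1 through 0.812 in replicate 2 to 1.08. Low values are therefore least precise in dKO replicates 1 and 2. On the log2(FPKM + 1) scale control libraries correlated with each other at 0.982 to 0.983, dKO libraries at 0.928 to 0.948, and libraries of different groups at 0.866 to 0.917. Rnf2 stood at 53.7, 46.8 and 48.2 FPKM in controls and 14.8, 8.44 and 5.31 FPKM in dKO libraries, 19.2% of the control mean (limma adjusted p = 0.000696), so it followed the labels. Ring1, deleted in both groups, was at most 0.240 FPKM in any library.

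Amino acid carriers differ in substrate and in driving force. SLC1 proteins use the sodium gradient to concentrate glutamate and aspartate or to exchange neutral amino acids, SLC6 proteins couple uptake to sodium and chloride, and SLC38 proteins move glutamine, alanine and other small neutral amino acids. SLC7 holds the cationic carriers and the light chains of heteromeric exchangers, which reach the membrane only when joined to a heavy chain. In the ovarian follicle the oocyte takes up some amino acids by its own carriers and receives others from granulosa cells through gap junctions, and glycine carried by GLYT1 serves eggs and early embryos as an osmolyte.

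In control oocytes a few genes made up most of the transporter RNA. The glycine carrier Slc6a9 was highest, at 93.9 ± 1.83 FPKM (SD, n = 3). It was followed by the cystine-glutamate exchanger Slc7a11 at 61.4 ± 5.52, the taurine carrier Slc6a6 at 41.4 ± 3.38 and the cationic carrier Slc7a2 at 35.9 ± 6.89 FPKM (SD, n = 3). Slc6a6 and Slc7a2 overlapped in their libraries, and the gaps from Slc6a9 to Slc7a11 and from Slc7a11 to Slc6a6 were wider than the spread. The nucleobase carrier Slc43a3 (20.8 ± 4.46), the proline carrier Slc6a7 (17.1 ± 1.96), the large neutral amino acid carrier Slc7a5 (15.3 ± 0.856) and the branched-chain amino acid carrier Slc6a15 (10.6 ± 0.672) came next, and neighbours among Slc43a3, Slc6a7 and Slc7a5 overlapped. The 3 highest genes held 57.5% of the summed transporter FPKM in controls. The transporters together made up 0.106% of all FPKM in controls and 0.137% in dKO oocytes.

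**Figure D1:**
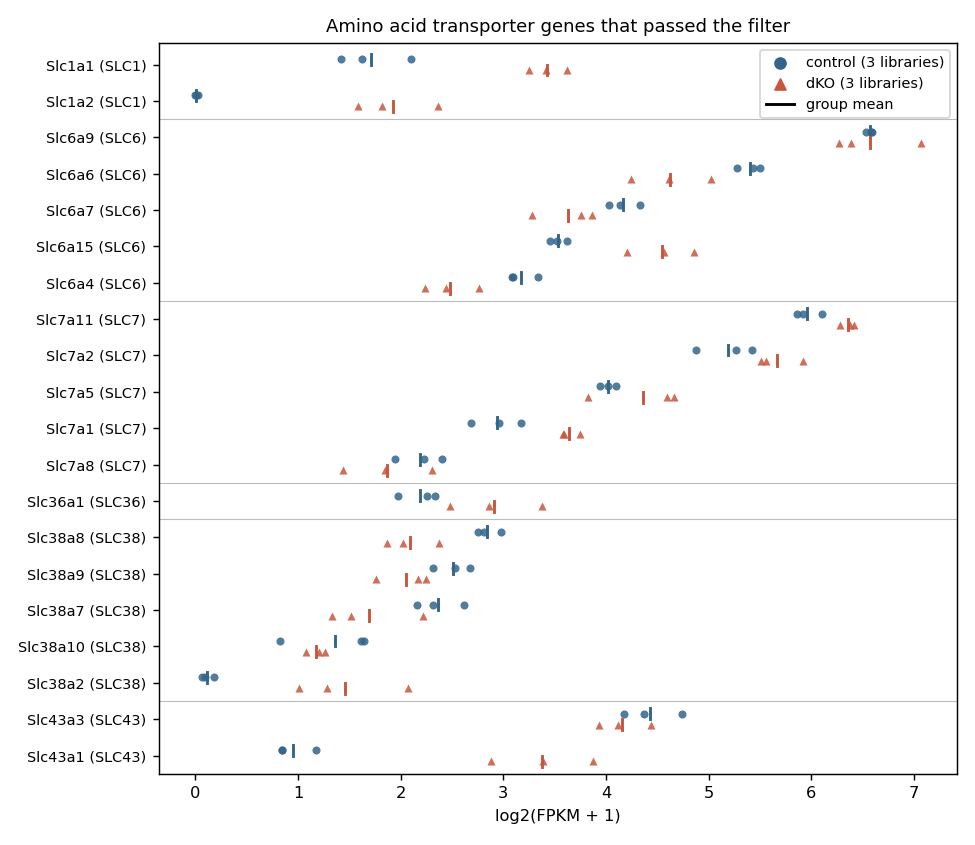
Level of the 20 transporter genes that passed the filter on low values, as log2(FPKM + 1) per library, grouped by family; circles are the 3 control and triangles the 3 dKO libraries, and vertical bars are means of the log2 values. Slc6a9 is the highest gene, and the 2 groups stand far apart at Slc1a1, Slc1a2, Slc38a2 and Slc43a1.

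Between control and dKO oocytes the transporter genes differed in both directions. The glutamate carriers Slc1a1 and Slc1a2, the leucine carrier Slc43a1, the glutamine and alanine carrier Slc38a2, Slc6a15 and the cationic carrier Slc7a1 rose in dKO oocytes. Slc6a6, the serotonin carrier Slc6a4 and the SLC38 gene Slc38a8 fell. A gene was tested where at least 3 of 6 libraries held at least 1 FPKM, and 20 of the 56 transporters passed. Of these 20, 6 rose, where 14.0% of all 11334 genes tested did, and 3 fell, where 7.04% did (limma, Benjamini-Hochberg adjusted over all genes tested, threshold 0.05). The filter keeps genes that are near 0 in controls only where dKO values are high, and Slc1a2, Slc38a2 and Slc43a1 averaged less than 1 FPKM in controls, so these shares are over members that it favours. With no filter 13 of the 54 transporters above 0 in any library rose, or 24.1% against 9.88% of 20310 genes, and 1 fell, or 1.85% against 2.68%. The median log2 change of the 54 was 0.05, beside 0.03 for all genes. Low genes rose more often than high ones in these data: of all genes tested with a mean under 3 FPKM 26.5% rose and 3.73% fell, against 3.80% and 9.98% of genes at 30 to 100 FPKM. In whole oocyte pools, fewer cells of a type and less RNA per cell cannot be told apart.

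**Figure D2:**
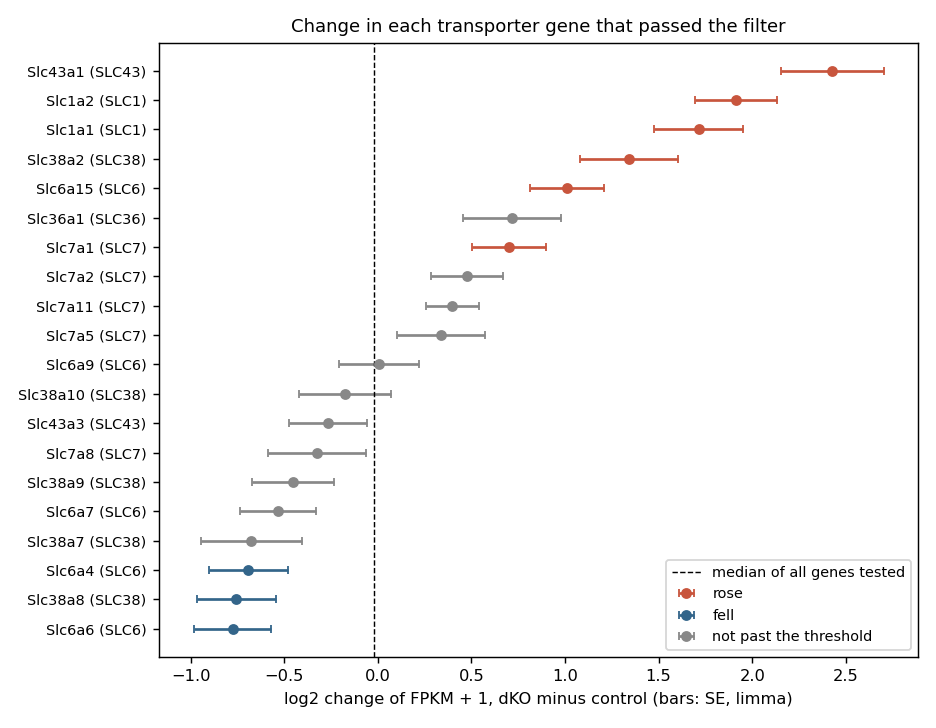
The log2 change of FPKM + 1 (dKO minus control) of the 20 transporters that passed the filter, with the SE from limma; red genes rose, blue genes fell and grey genes were not past the threshold, and the dashed line is the median of all genes tested (-0.02). Changes run from -0.78 for Slc6a6 to 2.43 for Slc43a1.

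Both SLC1 glutamate carriers that passed the filter rose. Slc1a1, which encodes the glutamate and aspartate carrier EAAT3, stood at 1.67, 2.07 and 3.30 FPKM in controls 1 to 3 and at 9.66, 11.3 and 8.50 FPKM in dKO libraries 1 to 3. Every dKO library was above every control, and the mean was 4.18-fold higher, a log2 change of 1.71 with an SE of 0.24 (limma adjusted p = 0.00117). Slc1a2 encodes EAAT2, the main glutamate carrier of brain astrocytes. It was at or near 0 in controls, at 0.0167, 0 and 0.00365 FPKM, and at 4.15, 2.008 and 2.52 FPKM in dKO libraries, a log2 change of 1.91 with an SE of 0.22 (limma adjusted p = 0.000415). Exons of both genes overlap an annotated gene on the other strand, and whether reads were counted by strand is not given in the sources used here.

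PRC1 is known to gather at CpG-rich gene starts. The 250 bases before a listed start of Slc1a1 and of Slc1a2 are therefore shown, with each CG in capitals (RefSeq, build GRCm38.p6). They lie at chr19:28834885-28835134, plus strand, for Slc1a1 and at chr2:102706188-102706437, plus strand, for Slc1a2.
Slc1a1: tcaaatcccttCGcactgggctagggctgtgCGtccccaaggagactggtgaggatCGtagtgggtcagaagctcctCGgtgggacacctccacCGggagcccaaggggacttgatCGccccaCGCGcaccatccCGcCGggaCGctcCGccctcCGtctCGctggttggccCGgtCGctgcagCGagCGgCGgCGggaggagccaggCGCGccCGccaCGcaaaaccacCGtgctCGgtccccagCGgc
Slc1a2: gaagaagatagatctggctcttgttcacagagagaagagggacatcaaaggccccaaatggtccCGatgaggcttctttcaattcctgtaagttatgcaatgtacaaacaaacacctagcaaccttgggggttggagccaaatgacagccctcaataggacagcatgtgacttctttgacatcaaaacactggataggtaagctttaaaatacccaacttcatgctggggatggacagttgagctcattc
The window of Slc1a1 holds 27 CG, a number reached by 8.56% of 32851 windows of this length, and its GC content is 70.4%. The window of Slc1a2 holds 1 CG, which 92.1% of windows reach, and its GC content is 44.8%. The windows shown for the 2 carriers that rose thus lie at opposite ends of the CpG range. Whether oocytes use these starts or others of the same genes was not tested.

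The neutral amino acid exchangers of SLC1 were below the filter. Slc1a4 (ASCT1) stood at 0, 0.0574 and 0 FPKM in controls against 0.732, 0.719 and 0.869 FPKM in dKO libraries. The glutamine exchanger Slc1a5 (ASCT2) stood at 0.0378, 0.139 and 0 FPKM in controls against 0.952, 0.610 and 0.663 FPKM in dKO libraries. In the fit with no filter both were higher in dKO oocytes, with log2 changes of 0.80 and 0.71 (limma adjusted p = 0.00214 and 0.00937). Slc1a5 lost its call when control replicate 1 or 3 was left out (limma adjusted p up to 0.0573). Slc1a3, the astrocyte carrier EAAT1, Slc1a6 and Slc1a7 did not exceed 0.122 FPKM in any library and were not past the threshold. Summed over the 7 genes, SLC1 stood at 1.73 to 3.33 FPKM in controls and 12.6 to 15.6 FPKM in dKO libraries, and no other family's sum differed by as large a ratio of means.

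**Figure D3:**
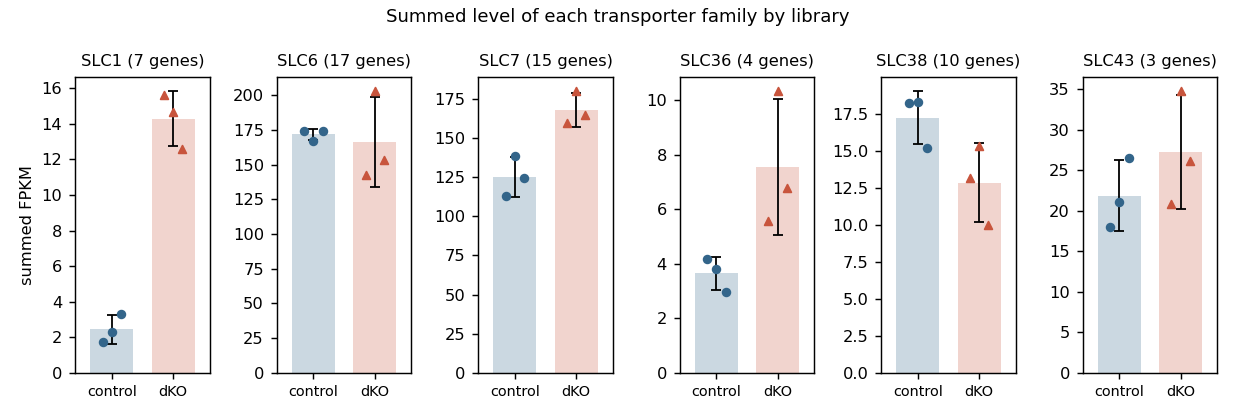
Summed FPKM of each transporter family in each library, on a linear scale from 0; bars are group means, error bars the SD over 3 libraries, circles controls and triangles dKO libraries. SLC1 moves from 2.45 to 14.3 FPKM, and the SLC6 sums overlap.

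In SLC6 the most abundant carrier was not past the threshold, and of the 4 carriers tested below it 1 rose and 2 fell. Slc6a9, which encodes GLYT1, stood at 91.9, 95.4 and 94.5 FPKM in controls against 76.4, 133 and 82.4 FPKM in dKO libraries. The controls were close together, dKO replicate 2 was far above the other 2, and the log2 change was 0.01 with an SE of 0.21 (limma adjusted p = 0.985). Slc6a15, which encodes the branched-chain amino acid and proline carrier B0AT2 known from neurons, stood at 11.3, 9.99 and 10.5 FPKM in controls against 28.1, 22.7 and 17.5 FPKM in dKO libraries. All dKO values were above the controls, a log2 change of 1.01 with an SE of 0.20 (limma adjusted p = 0.00739).

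The taurine carrier Slc6a6 stood at 42.1, 37.7 and 44.4 FPKM in controls against 17.9, 23.5 and 31.5 FPKM in dKO libraries. The groups did not overlap, the dKO mean was 58.7% of the control mean, and the log2 change was -0.78 with an SE of 0.21 (limma adjusted p = 0.0293). Slc6a4, which encodes the serotonin carrier, stood at 9.09, 7.53 and 7.49 FPKM in controls against 3.71, 5.80 and 4.42 FPKM in dKO libraries. Its log2 change was -0.69 with an SE of 0.21 (limma adjusted p = 0.0489), close to the threshold. Both falls rest on few libraries: Slc6a6 lost its call without any 1 control, dKO replicate 1 or dKO replicate 2 (limma adjusted p at most 0.117), after quantile normalization (0.0629) and with no filter (0.0661). Slc6a4 lost its call without any 1 library except dKO replicate 2 (up to 0.183), with the replicate number as a block (0.0633), with array weights (0.0773), with no filter (0.0668), with the filter at 5 FPKM (0.0510) and with a pseudocount of 0.1 (0.0501). The proline carrier Slc6a7 stood at 19.2, 15.4 and 16.6 FPKM in controls against 8.73, 12.5 and 13.6 FPKM in dKO libraries, without overlap but not past the threshold (log2 change -0.53 ± 0.20, SE; limma adjusted p = 0.0957).

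Slc6a4 and Slc38a8 were the 2 tested transporters that fell and had a listed window, and the start of Slc6a4 is shown here. Its window lies at chr11:76998347-76998596, plus strand, with each CG in capitals.
Slc6a4: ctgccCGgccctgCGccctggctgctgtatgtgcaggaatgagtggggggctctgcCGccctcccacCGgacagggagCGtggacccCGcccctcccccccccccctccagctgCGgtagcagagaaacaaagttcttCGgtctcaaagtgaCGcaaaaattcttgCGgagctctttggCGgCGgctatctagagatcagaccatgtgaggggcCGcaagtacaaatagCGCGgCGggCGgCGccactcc
It holds 18 CG, a number reached by 21.7% of windows.

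The other 12 SLC6 genes were below the filter. The dopamine carrier Slc6a3 stood at 0.0297, 0.0219 and 0.0388 FPKM in controls against 0.643, 1.02 and 0.767 FPKM in dKO libraries, with a log2 change of 0.81 (limma with no filter, adjusted p = 0.00469). The neuronal glycine carrier Slc6a5 stood at 0.0711, 0.0472 and 0.0697 FPKM in controls against 2.24, 2.15 and 0.630 FPKM in dKO libraries, with a log2 change of 1.26 (limma with no filter, adjusted p = 0.0388). Of these only Slc6a3 kept its call in each of 8 further fits with no filter, which left out each library in turn, added the replicate block or used quantile normalization. Slc6a5 kept it in 1 of the 8, without dKO replicate 3 (limma adjusted p = 0.00323), and the highest value was 0.132. The creatine carrier Slc6a8 stood at 0.0514, 0 and 0 FPKM in controls against 2.73, 0.648 and 0.435 FPKM in dKO libraries, all above the controls and led by dKO replicate 1, and was not past the threshold (limma with no filter, adjusted p = 0.130).

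In the GABA and betaine branch, Slc6a12 and Slc6a11 were also above every control in each dKO library. The betaine carrier Slc6a12 stood at 0.232, 0.0905 and 0.0535 against 0.516, 0.406 and 0.868 FPKM, and the GABA carrier Slc6a11 at 0, 0.138 and 0.0572 against 0.214, 0.290 and 0.223 FPKM (limma with no filter, adjusted p = 0.0550 and 0.0576). The GABA carrier Slc6a13 overlapped between groups, at 0.113 to 0.380 FPKM in controls and 0.0750 to 0.320 FPKM in dKO libraries. The broad neutral and cationic carrier Slc6a14 reached 0.693 FPKM in dKO replicate 1 and overlapped the controls. Slc6a17, a carrier of synaptic vesicles, was listed at 0 in all controls and dKO replicate 2 and at 0.167 and 0.149 FPKM in dKO replicates 1 and 3. The noradrenaline carrier Slc6a2 and the kidney and gut carriers Slc6a18 and Slc6a19 did not exceed 0.0746 FPKM in any library.

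**Figure D4:**
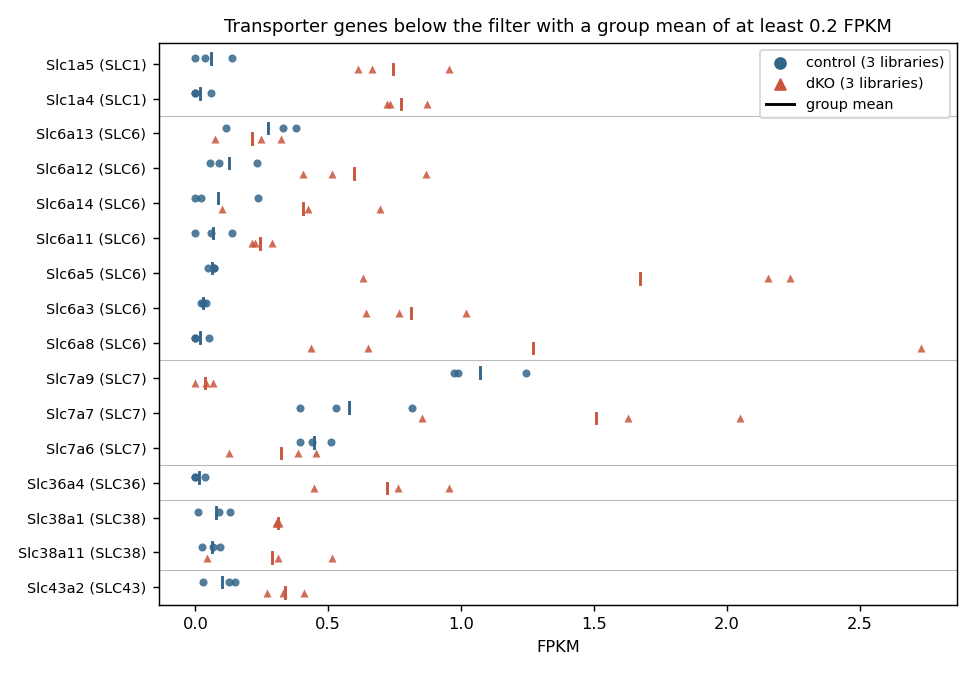
FPKM per library of the 16 transporter genes below the filter with a group mean of at least 0.2 FPKM, grouped by family; circles are controls, triangles dKO libraries and vertical bars group means. Slc7a9 is the gene with every dKO library below every control, and Slc6a8 and Slc6a5 have the widest spread among dKO libraries.

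Among the cationic carriers of SLC7, which import arginine, lysine and ornithine, Slc7a1 rose. It encodes CAT1 and stood at 8.003, 6.79 and 5.44 FPKM in controls against 11.04, 12.5 and 10.97 FPKM in dKO libraries. All dKO libraries were above the controls, with a mean 1.70-fold higher and a log2 change of 0.70 with an SE of 0.20 (limma adjusted p = 0.0341). The call was lost without any 1 control, dKO replicate 1 or dKO replicate 2 (limma adjusted p at most 0.154) and with array weights (0.0530), and in 7 of the 8 further fits with no filter (at most 0.142). Slc7a2, which encodes CAT2, was the more abundant, at 28.4, 41.9 and 37.5 FPKM in controls and 46.1, 59.7 and 44.6 FPKM in dKO libraries. Its groups did not overlap either, and it was not past the threshold (log2 change 0.48 ± 0.19, SE; limma adjusted p = 0.115). Slc7a3, Slc7a4 and Slc7a14 stayed at or below 0.148 FPKM in every library.

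The heavy chain 4F2hc fell. Of its light chains 3 were tested (Slc7a5, Slc7a8 and Slc7a11). Of these 0 rose and 0 fell, where 14.0% of all genes tested rose and 7.04% fell. Slc3a2, which encodes 4F2hc and is no member of the 6 families, stood at 33.2, 43.6 and 46.2 FPKM in controls against 15.9, 26.4 and 20.5 FPKM in dKO libraries. Every dKO library was below every control, the dKO mean was 51.1% of the control mean, and the log2 change was -0.95 with an SE of 0.22 (limma adjusted p = 0.0143). Its call was lost when control replicate 2, control replicate 3 or dKO replicate 1 was left out (limma adjusted p at most 0.0717). Slc7a11, which encodes the cystine-glutamate exchanger xCT, stood at 57.1, 67.6 and 59.4 FPKM in controls against 84.6, 76.6 and 82.0 FPKM in dKO libraries. It was above the controls in each dKO library and not past the threshold (log2 change 0.40 ± 0.14, SE; limma adjusted p = 0.0801), except after quantile normalization (0.0315).

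Slc7a5, which encodes LAT1, the carrier of leucine and other large neutral amino acids, stood at 14.4, 15.2 and 16.1 FPKM in controls against 13.1, 24.4 and 23.1 FPKM in dKO libraries. Replicate 1 of the dKO group was below the controls and the other 2 were above (limma adjusted p = 0.333). Without that library Slc7a5 was past the threshold, with a log2 change of 0.61 (limma adjusted p = 0.0450). Slc7a8, which encodes LAT2, overlapped between groups at 2.84 to 4.30 FPKM in controls and 1.71 to 3.95 FPKM in dKO libraries (limma adjusted p = 0.407). Below the filter, Slc7a7 (y+LAT1) stood at 0.392, 0.815 and 0.528 against 1.63, 2.05 and 0.853 FPKM, and Slc7a6 (y+LAT2) at 0.511, 0.394 and 0.438 against 0.455, 0.385 and 0.126 FPKM (limma with no filter, adjusted p = 0.131 and 0.467). Slc7a10 did not exceed 0.0709 FPKM.

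The 6 light chains of 4F2hc (Slc7a5, Slc7a6, Slc7a7, Slc7a8, Slc7a10 and Slc7a11) summed to 75.3, 88.4 and 80.2 FPKM in controls and 102, 107 and 109 FPKM in dKO libraries. Divided by Slc3a2 in the same library, the sum was 2.27, 2.03 and 1.74 in controls and 6.40, 4.07 and 5.29 in dKO libraries, or 2.011 ± 0.268 and 5.25 ± 1.16 (SD, n = 3). The ratios of the groups did not overlap. Slc7a11, which was not past the threshold, held 61.4 of the mean light chain sum of 81.3 FPKM in controls. In dKO libraries it held 81.1 of 105.9 FPKM. The ratio thus mainly sets Slc7a11 against Slc3a2, and it was not tested.

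**Figure D5:**
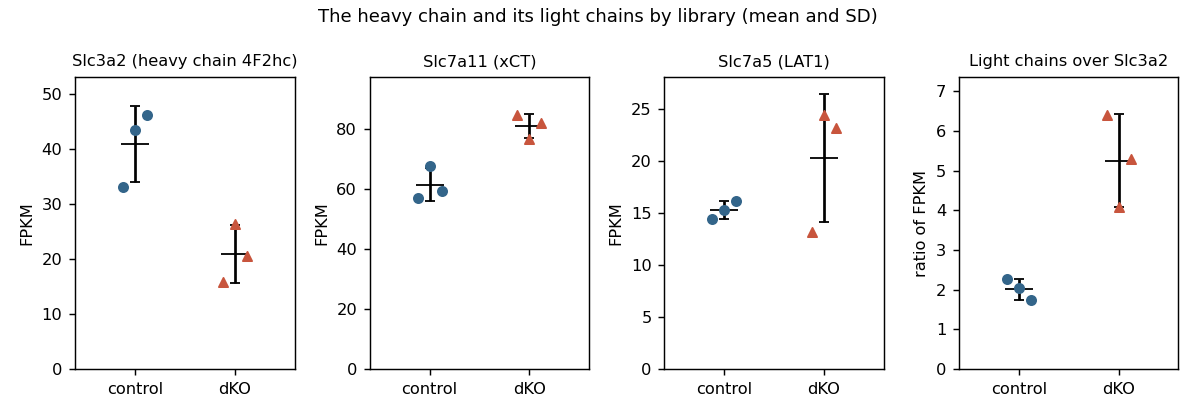
FPKM of the heavy chain Slc3a2 and of the light chains Slc7a11 and Slc7a5 in each library, and the summed FPKM of 6 light chains divided by that of Slc3a2; circles are controls, triangles dKO libraries, and bars give the mean and SD. Slc3a2 is lower in every dKO library, and the ratio runs from 1.74 to 2.27 in controls and from 4.07 to 6.40 in dKO libraries.

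Slc7a11 is a known target of ATF4, the transcription factor of the response to amino acid shortage. Its RNA is shown against that factor: Atf4 stood at 179, 179 and 189 FPKM in controls against 88.6, 123 and 83.9 FPKM in dKO libraries, without overlap (log2 change -0.90 ± 0.18, SE; limma adjusted p = 0.00722). The 250 bases before the Slc7a11 start (chr3:50443614-50443863, minus strand) are printed with matches to the C/EBP-ATF response element, TGATGNAAN on either strand, in capitals.
Slc7a11: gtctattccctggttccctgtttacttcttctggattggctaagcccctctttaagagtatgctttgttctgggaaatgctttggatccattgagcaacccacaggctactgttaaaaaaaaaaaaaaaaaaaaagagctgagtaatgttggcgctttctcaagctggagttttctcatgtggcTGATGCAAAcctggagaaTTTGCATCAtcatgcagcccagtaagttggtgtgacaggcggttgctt
The window holds 2 matches, which begin 66 and 48 bases before the start, the latter on the opposite strand. Of all windows 3.44% hold a match. A match is a run of letters and not a measured binding site.

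The light chain Slc7a9 (b0,+AT) pairs with another heavy chain, encoded by Slc3a1, in a carrier of cystine and cationic amino acids known from the kidney. Slc7a9 stood at 1.25, 0.974 and 0.989 FPKM in controls against 0.0649, 0 and 0.0396 FPKM in dKO libraries. It missed the filter because 1 library held 1 FPKM, and with no filter it was the 1 transporter that fell, with a log2 change of -0.998 (limma adjusted p = 0.00231). It kept its call in each of the 8 further fits with no filter (limma adjusted p 0.00180 to 0.0310). Of the 8976 genes below the filter 0.891% fell and 7.95% rose in that fit, against 1 and 7 of the 34 transporters below it. Slc3a1 stood at 0.142 to 0.389 FPKM in controls and 0.115 to 0.480 FPKM in dKO libraries. Among the remaining light chains Slc7a13 and Slc7a15 did not exceed 0.194 FPKM and Slc7a12 was listed at 0 in every library.

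In SLC38 the system A carriers, which move alanine and glutamine with sodium, were near 0 in controls and higher in dKO oocytes. Slc38a2, which encodes SNAT2, stood at 0.131, 0.0483 and 0.0642 FPKM in controls against 3.2, 1.43 and 1.01 FPKM in dKO libraries. All dKO libraries were above the controls, with the highest in replicate 1, and the log2 change was 1.34 with an SE of 0.26 (limma adjusted p = 0.00700). The call was lost after quantile normalization (limma adjusted p = 0.0870). Left-out dKO libraries put Slc38a2 below the filter, and with no filter its adjusted p was 0.0325 on all libraries. In that fit the call was lost without any 1 control or dKO replicate 2 (up to 0.122), with the replicate block (0.0581) and after quantile normalization (0.0591). Slc38a1, which encodes SNAT1 and is the next coding gene to Slc38a2 on chromosome 15, stood at 0.0891, 0.130 and 0.00920 FPKM in controls against 0.305, 0.309 and 0.316 FPKM in dKO libraries. Its log2 change was 0.29 (limma with no filter, adjusted p = 0.0202), and it lost the call in 4 of 8 further fits, with a highest value of 0.339 after quantile normalization.

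The system N carriers were at or near 0 in both groups. Slc38a3, which encodes SNAT3, known for supplying the oocyte with alanine and histidine by way of cumulus cells, was listed at 0 in all 3 controls and dKO replicate 1 and at 0.0178 and 0.0530 FPKM in dKO replicates 2 and 3. Slc38a5 (SNAT5) did not exceed 0.0715 FPKM in any library. Neither was past the threshold (limma with no filter, adjusted p = 0.426 and 0.740).

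The most abundant SLC38 gene in controls was Slc38a8, which stood at 5.73, 6.86 and 6.01 FPKM in controls against 2.66, 4.18 and 3.07 FPKM in dKO libraries. The groups did not overlap, and the log2 change was -0.76 with an SE of 0.21 (limma adjusted p = 0.0345). The call was lost without any 1 library except dKO replicate 2 (limma adjusted p up to 0.148), with no filter (0.0565) and with array weights (0.0503). The lysosomal genes Slc38a9, whose product senses arginine for mTORC1, and Slc38a7, a glutamine carrier, stood at 4.78, 5.41 and 3.98 against 3.49, 3.73 and 2.38 FPKM and at 5.14, 3.48 and 3.99 against 1.87, 3.66 and 1.52 FPKM. Neither was past the threshold (limma adjusted p = 0.174 and 0.111), and both were after quantile normalization (0.0447 and 0.0290). Slc38a7 was also past it with libraries centred on their means (0.0413) and without dKO replicate 2 (0.0304). Slc38a10 overlapped between groups at 0.766 to 2.11 FPKM (limma adjusted p = 0.642), and Slc38a6 and Slc38a11 did not exceed 0.513 FPKM.

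The window of Slc38a8, the other tested transporter that fell and had a listed window, lies at chr8:119501699-119501948, minus strand, with each CG in capitals.
Slc38a8: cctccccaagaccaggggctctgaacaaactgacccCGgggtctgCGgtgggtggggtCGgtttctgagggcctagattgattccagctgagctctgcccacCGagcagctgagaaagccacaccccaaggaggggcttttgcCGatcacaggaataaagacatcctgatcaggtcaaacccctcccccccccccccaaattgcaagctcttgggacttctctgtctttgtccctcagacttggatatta
It holds 5 CG, a number reached by 55.6% of windows.

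The proton-coupled carriers of SLC36 move small amino acids out of lysosomes and across the cell membrane. Slc36a1 (PAT1) stood at 4.04, 3.78 and 2.93 FPKM in controls against 4.57, 9.40 and 6.26 FPKM in dKO libraries. Each dKO library was above the controls, by a small margin in replicate 1, and the gene was not past the threshold (log2 change 0.72 ± 0.26, SE; limma adjusted p = 0.0857). Slc36a4 (PAT4) stood at 0.0371, 0 and 0 FPKM in controls against 0.954, 0.761 and 0.445 FPKM in dKO libraries, with a log2 change of 0.75 (limma with no filter, adjusted p = 0.0134), and lost its call without any 1 control (up to 0.0690). Slc36a2 did not exceed 0.170 FPKM and Slc36a3 was listed at 0 in every library.

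In SLC43, Slc43a1 had the largest log2 change of FPKM + 1 among the transporters tested. With a pseudocount of 0.1 the log2 changes of Slc1a2 (4.75) and Slc38a2 (3.32) were larger than that of Slc43a1 (3.21). It encodes LAT3, a sodium-independent carrier of leucine and other large neutral amino acids that needs no heavy chain. It stood at 0.792, 1.26 and 0.791 FPKM in controls against 6.35, 13.7 and 9.45 FPKM in dKO libraries. The groups were far apart, with a mean 10.4-fold higher and a log2 change of 2.43 with an SE of 0.28 (limma adjusted p = 0.000413), and the call held under all 16 alternatives. Slc43a3, separated from Slc43a1 on chromosome 2 by 1 coding gene, Rtn4rl2, stood at 17.0, 19.7 and 25.7 FPKM in controls against 14.2, 20.6 and 16.3 FPKM in dKO libraries and overlapped between groups (limma adjusted p = 0.391). Slc43a2 (LAT4) stood at 0.149, 0.128 and 0.0283 against 0.269, 0.409 and 0.329 FPKM (log2 change 0.28; limma with no filter, adjusted p = 0.0430), a call lost in each of the 8 further fits (0.0527 to 0.483). Slc43a1, Slc1a2 and Slc1a1 were the rising genes with 1 listed window and the largest log2 changes, and their starts are shown for that reason. The window of Slc43a1 lies at chr2:84840073-84840322, plus strand, with each CG in capitals.
Slc43a1: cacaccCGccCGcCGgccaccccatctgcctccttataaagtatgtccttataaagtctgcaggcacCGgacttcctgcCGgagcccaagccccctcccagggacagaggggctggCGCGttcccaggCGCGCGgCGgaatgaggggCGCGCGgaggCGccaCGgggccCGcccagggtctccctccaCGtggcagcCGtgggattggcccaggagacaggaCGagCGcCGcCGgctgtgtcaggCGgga
It holds 24 CG, a number reached by 11.98% of windows. A comparison of CpG content over the whole set is void, since only 38 of the 56 genes (67.9%) matched the table, under the 80% needed.

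Across all 56 transporters, each dKO library was above each control at 22 genes and below each control at 6. That is 40.7% and 11.1% of the 54 genes above 0, beside 22.3% and 12.5% of all genes above 0. Of the 22, 13 were below the filter, as was 1 of the 6. Some of these separations are too small to measure. Slc7a10 counts with 3.29e-10 FPKM in dKO replicate 2 against 0 in controls. Slc6a2 counts with 0.00697 FPKM in dKO replicate 3 against 0.00659 in control replicate 1. The shares of all genes include such separations too. Slc1a1, Slc6a15 and Slc43a1 kept their calls under all 16 alternatives, and Slc1a2 under the 12 in which it passed the filter. In the 8 further fits with no filter Slc43a1 and Slc1a2 kept their calls in all 8, as did Slc1a4, Slc6a3 and Slc7a9 below the filter. Slc1a1 lost its call there without control replicate 2 (limma adjusted p = 0.0517). Slc6a15 lost it without any 1 control and with the replicate block (limma adjusted p up to 0.0943).

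Other genes of amino acid supply moved in both directions. Of 15 other carriers of amino acids and peptides that the deposited file lists, 8 were tested, of which 2 rose and 0 fell, where 14.0% of all genes tested rose and 7.04% fell. These were the lysosomal acidic sugar carrier Slc17a5 (0.865 to 7.35 FPKM) and the vesicular glutamate carrier Slc17a8 (0.418 to 1.58 FPKM), with log2 changes of 2.13 and 0.85 (limma adjusted p = 0.000928 and 0.0113), the latter lost after quantile normalization (0.220) and without control replicate 2 or 3. The proline and betaine carriers of eggs, Slc6a20a and Slc6a20b, were below the controls in each dKO library, at 15.8 ± 2.21 and 10.1 ± 3.57 FPKM and at 8.25 ± 0.477 and 5.04 ± 1.43 FPKM (SD, n = 3), and neither was called (limma adjusted p = 0.118 and 0.0718). Of 13 mitochondrial amino acid carriers 9 were tested, and 1 rose and 0 fell, against the same shares of all genes. It was Sfxn1, a serine carrier, at 0.257 ± 0.0231 and 1.596 ± 0.446 FPKM (SD, n = 3; limma adjusted p = 0.00376, and 0.187 after quantile normalization). Slc17a8 and Sfxn1 were under 1 FPKM in every control, so the filter kept them for their dKO values. With no filter 2 of the 15 other carriers rose and 0 fell, beside 9.88% and 2.68% of all genes. Of the 12 mitochondrial carriers above 0, 1 rose and 0 fell in that fit.

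Of 24 genes of the amino acid stress response 20 were tested, of which 6 rose and 1, Atf4 itself, fell. Asparagine synthetase, Asns, went from 0.678 ± 0.172 to 5.82 ± 1.49 FPKM, the serine synthesis enzyme Psat1 from 0.0114 ± 0.00990 to 3.28 ± 0.808 FPKM and the lipoprotein receptor Vldlr from 0.217 ± 0.101 to 5.94 ± 0.291 FPKM (SD, n = 3). Of 29 genes of lysosomal amino acid sensing 25 were tested, of which 3 rose and 3 fell. The kinase Mtor went from 15.5 ± 1.76 to 7.22 ± 1.80 FPKM (log2 change -1.03; limma adjusted p = 0.0102), a call lost without control replicate 2 (0.0588), and Nprl2 and Sec13 of the GATOR complexes had log2 changes of -1.002 and -0.57. The GTPase gene Rragb rose from 0.0924 ± 0.0559 to 2.09 ± 0.712 FPKM (limma adjusted p = 0.000951), and Sesn1 and Fnip2 had log2 changes of 1.25 and 1.23. The calls of Nprl2, Sec13 and Sesn1 were lost without control replicate 2 or 3, among other fits (limma adjusted p up to 0.112, 0.129 and 0.0764). The rises, 6 of 20 and 3 of 25, stand beside 14.0% of all genes tested, and the falls, 1 of 20 and 3 of 25, beside 7.04%. Asns, Psat1, Vldlr, Rragb and Sesn1 were under 1 FPKM in every control and passed the filter on their dKO values. With no filter 4 of the 24 stress response genes rose and 1 fell, beside 9.88% and 2.68% of all genes. Of the 29 sensing genes 2 rose and 2 fell in that fit.

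The connexin Gja4, which forms the oocyte side of the junctions to granulosa cells, stood at 240, 282 and 250 FPKM in controls against 96.4, 226 and 158 FPKM in dKO libraries. It was below the controls in each dKO library and not past the threshold (limma adjusted p = 0.0847), but was with the replicate number as a block (0.0358). Of the 3 gap junction genes tested 1 rose and 0 fell, where 14.0% of all genes tested rose and 7.04% fell. It was Gjc1, under 1 FPKM in every control, from 0.656 ± 0.226 to 8.59 ± 2.55 FPKM (SD, n = 3; limma adjusted p = 0.000181). With no filter 2 of the 4 rose, Gjc1 and Gja1, and 0 fell, beside 9.88% and 2.68% of all genes. Gja1, also listed as a granulosa marker, went from 0.220 ± 0.174 to 1.05 ± 0.146 FPKM (SD, n = 3; limma with no filter, adjusted p = 0.0194). Granulosa cells were removed by pipetting before lysis. Of 19 granulosa and cumulus markers 10 were under 1 FPKM in every library, Ptx3 was at 0 in all, and Foxl2 and Amhr2 did not exceed 0.586 and 0.0817 FPKM. Of the 7 tested 4 rose and 0 fell, where 14.0% of all genes tested rose and 7.04% fell. The rises were led by the FSH receptor Fshr (0.158 ± 0.0183 to 10.6 ± 1.23 FPKM; SD, n = 3), followed by Wt1, Has2 and Nr5a2. Fshr, Wt1 and Has2 were under 1 FPKM in every control, so the filter kept them for their dKO values. With no filter 5 of the 18 above 0 rose and 0 fell, beside 9.88% and 2.68% of all genes. Wt1 lost its call after quantile normalization (limma adjusted p = 0.155), Has2 in 3 of 12 alternatives and Nr5a2 in 6 of 16. The aromatase gene Cyp19a1 was below the controls in each dKO library, at 9.94 ± 2.04 and 5.78 ± 0.498 FPKM (SD, n = 3; limma adjusted p = 0.05004), and was past the threshold in 5 of 16 alternatives. The granulosa and cumulus markers summed to 27.2 to 33.4 FPKM in controls and 50.9 to 51.9 FPKM in dKO libraries. Those of theca and stroma summed to 2.19 to 4.32 and 8.04 to 13.5 FPKM. Nr2f2, 1 of 2 theca and stroma markers tested, rose from 0.521 to 4.64 FPKM (group means, limma adjusted p = 0.000969). It was under 1 FPKM in every control, and Hsd3b1 was not called. The unfiltered fit put 5 of 12 such markers past the threshold, all higher in dKO oocytes, beside 9.88% of all genes. Apart from Nr2f2 these were Dcn, Pdgfra, Lum and Col1a1, each under 1 FPKM in controls. Cyp17a1, Cyp11a1 and Star overlapped between groups. Markers of endothelial cells summed to 24.4 to 33.3 and 19.6 to 25.8 FPKM, most of it from Pecam1. Of the 2 tested 0 rose and 1 fell, where 7.04% of all genes tested fell. It was Pecam1, from 25.2 ± 4.11 to 14.9 ± 2.57 FPKM (SD, n = 3; limma adjusted p = 0.0280), a call lost in 6 of 16 alternatives. Tek went the other way, from 4.05 ± 0.718 to 5.43 ± 0.312 FPKM (SD, n = 3), and was not called (limma adjusted p = 0.236). Kdr (0.424 to 1.46 FPKM) and Vwf (0.175 to 0.364 FPKM), below the filter, were also above the controls in each dKO library and not called with no filter. Markers of immune cells summed to 1.07 to 2.41 and 2.0 to 4.0 FPKM, and those of red blood cells to at most 0.741 FPKM. Sums led by few genes do not give the amount of each cell type. The part of such cells in the rise of the transporters was not tested. Of 10 oocyte markers 0 rose and 3 fell (Mos, Kit and Bmp15), where 7.04% of all genes tested fell. Most of these markers had a mean of at least 100 FPKM, and 14.5% of all genes tested at that level fell. Mos lost its call in 6 of 16 alternatives, Bmp15 in 7, with the replicate block among them (limma adjusted p = 0.0740), and Kit in 3, and with no filter 1 of the 10 fell. The oocyte marker sum was 7582 to 7809 FPKM in controls and 4335 to 6113 FPKM in dKO libraries, and its part in the falls was not tested.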

How the data were processed

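Per the labels' protocols, total RNA of 15 oocytes of 1 mouse was amplified with the Ovation v2 kit and sequenced on a HiSeq instrument. The authors deposited 1 FPKM column per library. The submitters' processing notes name TopHat2 2.0.11, Cufflinks 2.0.2 and build mm9. Which step each tool did, which annotation was used, and whether counting used strand or libraries were rescaled is not given in the sources used here. Exons of 11 of the 56 transporters overlap another gene in GENCODE M21, so these values are uncertain to that extent. The highly expressed Slc6a9, Slc6a6 and Slc7a2 are among them. Exons of Rnf2 also overlap a gene on the other strand, Trmt1l, so the same holds for its level.

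Of 24525 rows, 497 were exact repeats of another row and were dropped. The filter kept 11334 genes that reached 1 FPKM in 3 or more libraries. Values were tested as log2(FPKM + 1) with limma 3.58.1 (R 4.3.3; lmFit, and eBayes with trend), two-sided, with Benjamini-Hochberg adjustment across the kept genes and a threshold of 0.05. Fold changes on this scale understate those of low genes. The test was checked on simulated data. Exact tests of 3 against 3 libraries cannot go below p = 0.1 and were not used. Depth per library is relative, so no counting interval is given.

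Per the labels, libraries of the same replicate number shared a lane, which pairs them; deviations from group means correlated at 0.147, 0.107 and 0.0637 for replicates 1 to 3. The fit reported has no block, and the block is an alternative. The index sequence differed between the groups and not within them, so its effect cannot be told apart from that of the genotype. Members and lists were chosen with earlier results of these data known. By rule, the text names members past the threshold, the highest member of each family, members with a mean of at least 10 FPKM, Slc6a9, Slc38a3 and Slc7a11 for their known roles, and up to 3 rising and 3 falling genes of each list. The other tested members, those below the filter, Slc6a20a, Slc6a20b, Gja1, Gja4, Nr5a2 and Cyp19a1 were named after their values were seen. So were the theca, stroma and endothelial markers other than Nr2f2 and Pecam1. The values of 1 member are not reported here. Alternatives were other pseudocounts, filters, scalings, variance models, the replicate block and leaving out each library; the further fits with no filter were added after seeing the data. Promoter windows are from RefSeq (GRCm38.p6), trimmed to the 250 bases before the start; gene order is from the same assembly.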

Additional observations from a re-analysis of the deposited data

How the results depend on the processing

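The 6 rises and 3 falls among the transporters became 13 and 1 with no filter on low values, 6 and 5 with each library centred on its mean and 5 and 1 with array weights. Rises thus made up 6 of 9 calls on the deposited scale and 6 of 11 after centring, which moved the median of all genes from -0.02 to -0.12. With 1 library left out the rises numbered 3 to 5 and the falls 0 to 3. Without dKO replicate 2 there were 3 rises and 3 falls, and without dKO replicate 1 there were 4 and 0. With the replicate block they numbered 6 and 2, and the block, which pairs libraries by lane, changed no transporter call past the filter except that of Slc6a4. Over all genes the 1587 rises became 655 with the filter at 5 FPKM and the 798 falls became 1572 after centring. With 1 library left out they ranged from 613 to 1164 and from 215 to 1288, with falls outnumbering rises (1288 and 773) without dKO replicate 2. Rises made up 66.5% of all calls on the deposited scale, 52.6% after quantile normalization and 48.0% after centring. The summed SLC6 difference (dKO minus control, -5.58 FPKM) ranged from -23.9 to 6.34 FPKM with 1 library left out and reversed without dKO replicate 1 (6.34) or 3 (0.874). No called transporter changed direction. Slc1a2 and Slc38a2 gave no value with the filter at 5 FPKM or without any 1 dKO library, because they then fell below the filter. Rnf2 was lower under all 16 alternatives.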
